A study of Mus musculus with 16 samples.

Results

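The comparison described here is the Th17 polarization of mouse CD4 T cells after deletion of Sin3a, and it rests on 8 of the 16 libraries of the series. The members were chosen by their labels: 4 libraries of Sin3A-deficient cells kept in IL-7 and 4 libraries of Sin3A-deficient cells that were afterwards polarized towards Th17. All cells were purified CD4 T cells of mice aged 2 months on a C57BL/6 J background that carried 1 Rosa26-CreERT2 allele (labelled +/-) and 2 floxed Sin3a alleles (labelled Sin3AF/F). The IL-7 group was cultured for 6 days with IL-7 and tamoxifen, and the Th17 group had the same culture followed by 3 more days in Th17 polarizing conditions. Rosa26-CreERT2 is a Cre recombinase expressed in most cell types that enters the nucleus when tamoxifen binds it, so all 8 libraries come from cells exposed to tamoxifen, to active Cre and to IL-7. The other 8 libraries, used here for comparison, are the same cultures without tamoxifen (Sin3A-sufficient, 4 in IL-7 and 4 after Th17 polarization). Neither the labels nor the table name the cytokines and antibodies of the polarizing step. Polarization, activation of the T cells and 3 more days of culture therefore cannot be told apart, and in the comparison with sufficient cells deletion and tamoxifen cannot be told apart either.

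Naive CD4 T cells are small, quiescent cells that survive on IL-7 and recirculate through lymph nodes. When their antigen receptor is triggered in the presence of TGF-beta and IL-6, signalling through STAT3 induces the factors that direct the lineage, and the cells become Th17 cells that secrete IL-17A, IL-17F, IL-21 and IL-22 and defend mucosal surfaces. Sin3A is the scaffold of a large corepressor complex that brings histone deacetylases to chromatin, and the labels give its silencing in CD4 T cells as the purpose of the tamoxifen treatment.

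Values are normalized counts, meaning reads per gene divided by a library's size factor, restored from a table that had lost its decimal points; a gene name was attached to a row by the fold change and error the authors list for it. The places of the decimal points were chosen in part by the likeness of libraries within a group, which can narrow the spread shown. The 16 libraries held between 19769484 and 28660544 restored reads each. In a principal component analysis the first component held 75.8% of the variance and separated IL-7 from Th17 libraries. IL-7 library BASALTAM960 stood apart from the other deficient IL-7 libraries on it, at -83.87 against -99.01 to -95.55. The titles of the Th17 libraries are D3TAM955, D3TAM957, D3TAM959 and D3TAM960 and those of the IL-7 libraries BASALTAM955, BASALTAM957, BASALTAM959 and BASALTAM960, and 4 values in a row are always given in this order. The closing number of a title recurs in every group, and the 4 libraries, 1 per group, that share the number of D3TAM955 are called the D3TAM955 set, and so on. The D3TAM959 set is labelled female and the other sets male. A group therefore holds at least 2 animals, but no label states that all 4 libraries of a group are different animals, and the p-values cover only the spread among these libraries, which may be technical in part. Changes are differences of log2(normalized count + 1), Th17 minus IL-7, from limma fitted to all 16 libraries, and a gene is called when its p, adjusted by Benjamini-Hochberg over all 14554 rows tested, is under 0.05.

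A limit on names applies to every gene below. The deposited table names only the 8552 genes that its authors list with a lower level in deficient than in sufficient Th17 cells, and 6924 of them were joined to a row and tested. Since that choice was made with the deficient Th17 libraries, named genes lean downwards here, and a difference below 0 between the polarization of deficient and of sufficient cells is what the choice favours. A fall of RNA per cell and a loss of cells that hold the RNA cannot be told apart in these bulk samples.

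Polarization changed most of the transcriptome of deficient cells. Of 14554 rows, 11369 were called (78.1%), 5500 higher (37.8%) and 5869 lower (40.3%). A change of at least 2-fold was called for 2845 rows higher (19.5%) and 3129 lower (21.5%). Among the named genes 1983 were higher (28.6%) and 3441 lower (49.7%), and these shares are the ones against which the counts of the gene lists are to be read. The median change was -0.05 over all rows and -0.33 over the named genes.

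The deleted gene was examined first. Sin3a itself stood at 2358, 2148, 2164 and 2177 in the deficient IL-7 libraries and at 1727, 1806, 1827 and 1737 in the deficient Th17 libraries. All 4 Th17 values lay below all 4 IL-7 values, and the change was -0.32 ± 0.08 (SE, adjusted p = 0.00105). Sufficient cells held 2213 to 2761 in IL-7 and 1892 to 2271 after polarization, so the deficient and sufficient IL-7 groups overlapped, while the deficient Th17 libraries were all below the sufficient ones. Which exons lie between the loxP sites is not given in the sources used here, and reads from exons outside the deleted stretch still count for the gene, so its level is no measure of how complete the deletion was.

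RNA of the cytokines that define Th17 cells rose in Sin3A-deficient cells. Of 13 genes chosen as Th17 cytokines and chemokines, 12 are listed and 5 could be tested, and Il21, Il22, Il17f and Il17a rose. The fifth, Tnf, encoding the inflammatory cytokine TNF, was at 812 ± 60 in IL-7 and 874 ± 174 after polarization (SD, n = 4; change 0.09 ± 0.26 SE, adjusted p = 0.767). Il17f, which encodes IL-17F, had 26.6, 13.2, 10.1 and 34.6 in IL-7 and 8842, 8180, 7591 and 7028 after polarization. The groups were far apart and the 4 Th17 libraries lay close together (change 8.63 ± 0.33 SE, adjusted p = 2.5e-13). Il17a, which encodes IL-17A, had 0.951, 0.88, 0.917 and 0.988 in IL-7, a total of 4 reads, and 133, 168, 162 and 350 after polarization, with library D3TAM960 above the other libraries. Its change was 6.62 ± 0.47 (SE, adjusted p = 4.7e-10).

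Il21, whose product acts back on the cell that makes it through STAT3, went from 2.85, 0.88, 0 and 4.94 to 3815, 5105, 3432 and 4003, a change of 10.63 ± 0.44 (SE, adjusted p = 5.4e-13) and the largest among the named genes that met the rule for the 10 largest rises. Il22, which encodes a cytokine that acts on epithelial cells, went from 3.8, 0, 0.917 and 4.94 to 1210, 1827, 1057 and 2338 (change 9.14 ± 0.77 SE, adjusted p = 4.9e-09). For both genes every Th17 library was above every IL-7 library. Il9 is the gene of a cytokine that Th9 cells and some Th17 cells make. It could be restored in deficient cells but not in sufficient IL-7 cells, because the places of its decimal points there could not be settled. In deficient cells Il9 had 0, 0, 0 and 1.98 in IL-7 and 1867, 1811, 3052 and 3150 after polarization. It was called higher in a fit of the 8 deficient libraries alone (adjusted p = 1.6e-10). Il9 was chosen after its values were seen.

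The same cytokine genes were compared with sufficient cells, where the Th17 levels were 2557 for Il17a, 28001 for Il17f, 5628 for Il21 and 6924 for Il22 (means, n = 4). The rise in deficient cells was smaller for Il17a (difference of the 2 changes -2.85 ± 0.66 SE, adjusted p = 0.00288) and for Il17f (-1.58 ± 0.47, adjusted p = 0.0135). The difference was 0.29 ± 0.62 for Il21 (adjusted p = 0.741) and -2.16 ± 1.09 for Il22 (adjusted p = 0.13), so neither was called, and the error for Il22 was the largest of the 4. Neither Il17a nor Il17f kept the call of its difference when limma's voom weights were used (adjusted p = 0.335 and 0.0515). That of Il17f was also lost without the D3TAM955 or D3TAM957 set (adjusted p = 0.0533 and 0.0568), and that of Il22 was called without the D3TAM960 set (-2.96, adjusted p = 0.00586) and with a pseudocount of 5 (-1.91, adjusted p = 0.0265).

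**Figure D1:**
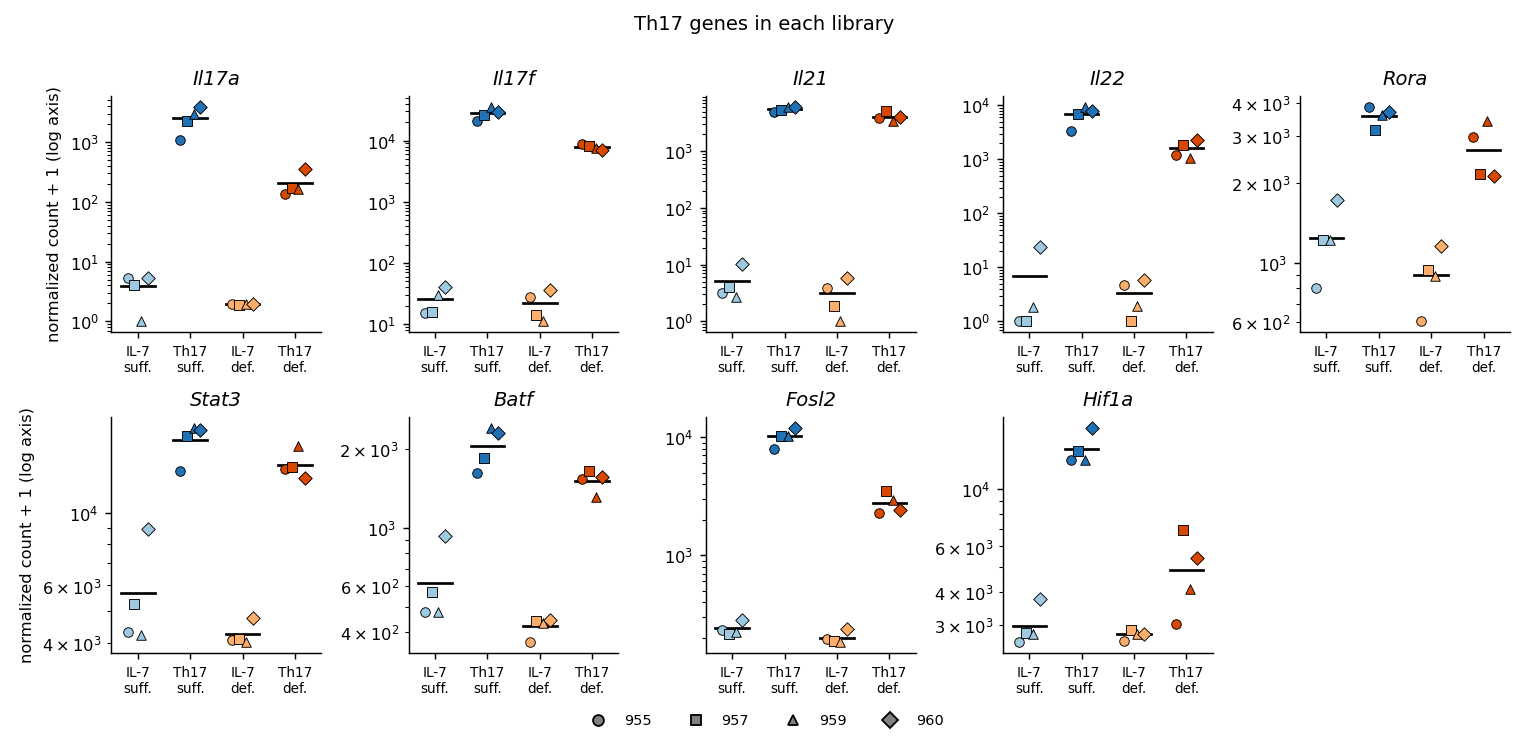
Normalized counts plus 1 (log axis) of 9 Th17 genes in all 16 libraries, by group; each point is a library, its shape gives the number in the library's title, and the bar is the group mean. Deficient Th17 libraries (dark orange) sit above deficient IL-7 libraries (light orange) for all 9 genes, and for Il17a they reach 133 to 350 while the sufficient Th17 libraries (dark blue) reach 1072 to 3929.

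The transcription factors that set up the Th17 programme rose in most cases. Of 15 genes in this list 11 were tested, 8 were higher and 3 lower, where 28.6% and 49.7% of the named genes were. Rora, a nuclear receptor that promotes the lineage, went from 895 ± 228 to 2665 ± 639 (SD, n = 4; change 1.58 ± 0.21 SE). Stat3, the signal transducer of IL-6 and IL-21, had 4103, 4117, 4027 and 4790 in IL-7 and 13522, 13738, 15921 and 12762 after polarization, a change of 1.71 ± 0.17 (SE, adjusted p = 4.4e-08). Batf, an AP-1 partner that opens Th17 loci together with IRF4, rose by 1.84 ± 0.17 (SE), from 421 ± 37.5 to 1514 ± 140 (SD, n = 4). For Rora, Stat3 and Batf the difference from the change in sufficient cells was not called, with values of 0.01 ± 0.30, 0.11 ± 0.24 and 0.07 ± 0.25 (SE).

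Fosl2, an AP-1 factor that restrains plasticity of Th17 cells, and Hif1a, the hypoxia-inducible factor that promotes glycolysis in them, rose less in deficient cells. Fosl2 had 193, 188, 182 and 236 in IL-7 and 2271, 3493, 2925 and 2431 after polarization (change 3.78 ± 0.14 SE, adjusted p = 1.5e-13), and the difference from sufficient cells, which reached 10147 on average, was -1.62 ± 0.20 (adjusted p = 1.3e-05). Hif1a had 2606, 2876, 2757 and 2773 in IL-7 and 3032, 6948, 4125 and 5434 after polarization. Th17 library D3TAM955 was the lowest and the 4 Th17 values varied by more than the IL-7 values did, but the groups did not overlap. The change was 0.76 ± 0.18 (SE, adjusted p = 9.6e-04), against 2.27 in sufficient cells (difference -1.51 ± 0.26, adjusted p = 2.4e-04).

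Nfkbiz, Prdm1 and Runx1 were the factors of the list that fell. Nfkbiz encodes IκBζ, which acts at the Il17a locus, and it went from 1293, 1275, 1426 and 1296 to 540, 630, 555 and 514 (change -1.24 ± 0.25 SE, adjusted p = 2.1e-04). In sufficient cells its change was 0.06, and the difference of -1.31 ± 0.36 was called (adjusted p = 0.00811), but not without the D3TAM957 or D3TAM959 set (adjusted p = 0.0625 and 0.0815). Prdm1, the gene of the effector regulator Blimp-1, fell from 232 ± 29.7 to 60.8 ± 14.1, and Runx1, a Runt-domain factor, from 1866 ± 212 to 946 ± 186 (SD, n = 4). Ikzf3, encoding Aiolos, rose by 0.52 ± 0.15 (SE, adjusted p = 0.00411) and differed upwards from its change in sufficient cells, by 0.71 ± 0.21 (adjusted p = 0.0132). Of 22 such upward differences among the 6924 named genes (0.318%), 2 fell in the gene lists, those of Ikzf3 and Lta. Both genes, like all named genes, are listed by the authors as lower in deficient than in sufficient Th17 cells. Of the 12 Th17 receptor genes 3 were tested, and Il1r1, Il17re and Ramp1 were not called, with changes of 0.73 ± 0.38, -0.16 ± 0.37 and 0.02 ± 0.23 (SE). Without IL-7 library BASALTAM960, which held 162 counts of Il1r1 against 34.3 to 51.3 in the rest of its group, Il1r1 was called higher (1.21, adjusted p = 9.1e-04).

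Genes of cytokine signalling pathways moved in both directions. In the TGF-beta pathway 10 of 22 genes were tested, 5 were higher and 3 lower. The ligand gene Tgfb1 rose from 2403 ± 184 to 5370 ± 327 (change 1.16 ± 0.11 SE). The receptor gene Tgfbr2 fell, from 5506, 5107, 5148 and 4736 to 1265, 848, 1335 and 797 (change -2.31 ± 0.15 SE, adjusted p = 1.2e-10), and the change in sufficient cells was -2.22. Smad3, which carries the receptor's signal to the nucleus, fell from 1519, 1288, 1450 and 1417 to 606, 964, 757 and 630 without overlap (change -0.96 ± 0.13 SE). It fell further than in sufficient cells, by -0.72 ± 0.18 (adjusted p = 0.00432). Itgav, an integrin chain that takes part in activating TGF-beta, rose from 797 ± 80.5 to 1590 ± 74.3 (SD, n = 4). Itgae, an integrin chain that TGF-beta induces, was called higher (1.28 ± 0.35 SE), although its groups overlapped. Tgfb3, another ligand gene, had 32.3, 22, 16.5 and 35.6 in IL-7 and 2.64, 23.3, 4.79 and 16.4 after polarization. It was tested only in the fit of the 8 deficient libraries (change -1.45 ± 0.55, adjusted p = 0.0281), the groups overlapped, and its name was joined on decimal places that were not the most probable ones (next-best powers of 10). The count of 5 higher became 3 without IL-7 library BASALTAM957, and also without the D3TAM955, D3TAM957 or D3TAM959 set.

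STAT3 feedback and target genes moved upwards in 5 and downwards in 2 of 9 cases. Jak3, the kinase bound to the common cytokine receptor chain, rose from 1310 ± 90.8 to 9065 ± 1262 (SD, n = 4; change 2.78 ± 0.20 SE), and Junb, an AP-1 factor required in Th17 cells, from 2240 ± 343 to 12345 ± 1390 (2.47 ± 0.10 SE). In the list of IL-2 and STAT5 genes 4 of 8 rose and 3 fell. Il2ra, encoding the high-affinity IL-2 receptor chain CD25, had 2113, 2208, 2776 and 3940 in IL-7 and 27423, 40565, 29371 and 34274 after polarization. Every Th17 library was above every IL-7 library, and the change of 3.60 ± 0.23 (SE, adjusted p = 1.1e-10) did not differ by a called amount from that in sufficient cells (difference 0.56 ± 0.32, adjusted p = 0.186). Il2rb, another chain of that receptor, rose from 2935 ± 853 to 6580 ± 531 (SD, n = 4) and Cish, a STAT5-induced inhibitor of cytokine signalling, by 1.45 ± 0.17 (SE) on the log2 scale. Lta, encoding lymphotoxin alpha, rose from 1269 ± 146 to 3156 ± 282, while its partner gene Ltb fell from 13344 ± 1140 to 4346 ± 766 (SD, n = 4). The rise of Lta was larger than in sufficient cells (difference 0.71 ± 0.28, adjusted p = 0.0495), although the authors list Lta as lower in deficient Th17 cells. This call was lost without the D3TAM955, D3TAM957 or D3TAM959 set and when any of 7 single libraries was left out. It was also lost under median-of-ratios or quantile scaling (adjusted p = 0.0568 and 0.0731) and with a pseudocount of 0.5 (adjusted p = 0.0509). The same held with voom weights, without the trend and with unsettled rows included (adjusted p = 0.0506, 0.0843 and 0.0611).

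Genes of T cell activation rose with the cytokines. Of 12 tested, 8 were higher and 2 lower. Nr4a1, an early gene of antigen receptor signalling, had 31.4, 20.2, 25.7 and 53.4 in IL-7 and 1762, 1598, 1028 and 1143 after polarization (change 5.42 ± 0.53 SE, adjusted p = 3.7e-08). Its name was joined on next-best powers of 10. Tfrc, the transferrin receptor that brings iron into dividing cells, rose from 1329 ± 205 to 9123 ± 1087 (SD, n = 4), and the costimulatory receptor gene Icos by 2.64 ± 0.19 (SE) on the log2 scale. Tnfrsf4, encoding OX40, rose from 982, 1026, 1127 and 1064 to 2211, 3188, 2582 and 2632, a change of 1.33 ± 0.15 (SE) against 2.80 in sufficient cells (difference -1.47 ± 0.21, adjusted p = 4.7e-05). Tnfrsf18, encoding the related receptor GITR, was at 2299 ± 110 and 2650 ± 579 (SD, n = 4) and was not called (0.18 ± 0.14 SE, adjusted p = 0.266). Without Th17 library D3TAM955 it was called higher (0.33, adjusted p = 0.0302). The difference from its rise in sufficient cells was -1.16 ± 0.20 (adjusted p = 3.1e-04). Tnfsf8, the gene of the CD30 ligand, fell from 5762 ± 513 to 1252 ± 431. Of 7 AP-1 genes 4 were higher and 1 lower. Jun, the founding AP-1 gene, was not readable in sufficient IL-7 cells. In deficient cells it went from 91.3, 69.5, 89.8 and 102 to 1332, 1395, 1184 and 1195 (change 3.85 ± 0.12 SE in the fit of 8 libraries). Jun was chosen after its values were seen. That fit tested 10 AP-1 genes and called 7 higher.

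Among inhibitory receptors Ctla4 was the one called higher of 5 tested, and 3 were lower. Ctla4, a brake on costimulation, had 333, 314, 463 and 481 in IL-7 and 2673, 6908, 4645 and 4126 after polarization (change 3.47 ± 0.21 SE, adjusted p = 5.3e-11). The Th17 libraries were spread over more than a 2-fold range and lay above all IL-7 libraries, and the rise was smaller than in sufficient cells (difference -0.95 ± 0.29, adjusted p = 0.0175). Without the D3TAM955, D3TAM959 or D3TAM960 set this difference was not called (adjusted p = 0.0661, 0.0727 and 0.0686). Lair1, a collagen-binding inhibitory receptor, fell from 184 ± 24.6 to 29.1 ± 9.84 (SD, n = 4). Lag3, another inhibitory receptor gene, was tested in the fit of 8 libraries only and went from 14.3, 21.1, 13.8 and 20.8 to 583, 688, 618 and 492. Lag3 was chosen after its values were seen, and that fit tested 10 inhibitory receptor genes and called 3 higher and 5 lower.

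**Figure D2:**
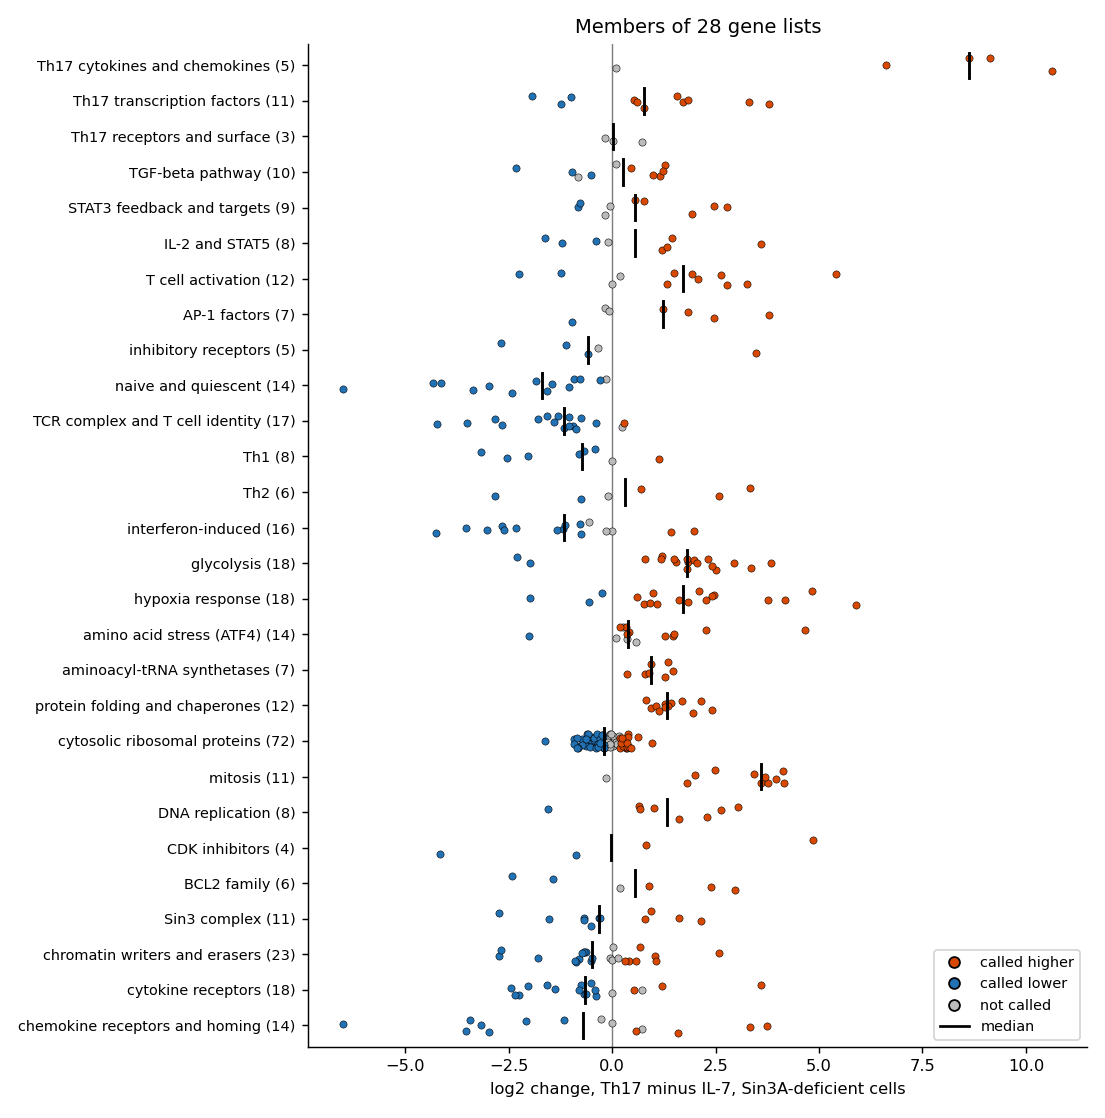
Log2 change (Th17 minus IL-7, deficient cells) of the tested members of 28 gene lists; each point is a gene, coloured by whether it was called, the black bar is the list's median, and the number of tested members is in brackets. Medians run from -1.70 for naive and quiescent genes to 8.63 for Th17 cytokines.

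Genes of the naive, quiescent state fell almost without exception. Of 32 genes in the list 14 were tested, 13 were lower and none higher, with a median change of -1.70 beside -0.33 for all named genes. Their summed level was 112582 to 138679 in the IL-7 libraries and 32265 to 42837 in the Th17 libraries. Pecam1, an adhesion receptor of naive T cells, had 5772, 5727, 6002 and 5357 in IL-7 and 291, 363, 229 and 263 after polarization. The libraries within each group lay close together (change -4.33 ± 0.11 SE, adjusted p = 2.4e-15). Pik3ip1, an inhibitor of PI3 kinase, fell from 9351, 11709, 11965 and 8594 to 498, 620, 765 and 507 (change -4.13 ± 0.20 SE). S1pr1, the receptor for sphingosine-1-phosphate by which T cells leave lymph nodes, fell from 15509 ± 1416 to 1968 ± 250, and Il7r, the receptor for the IL-7 in which all cells had been kept, from 12514 ± 2640 to 4144 ± 613 (SD, n = 4; change -1.58 ± 0.22 SE). The member that was not called was Klf6 (-0.15 ± 0.09 SE, adjusted p = 0.121), and it was called lower without the D3TAM960 set (adjusted p = 0.0381).

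Several of these falls were deeper than in sufficient cells. The difference was called below 0 for 9 of the 14 naive genes, where 33.9% of the named genes had such a call, a share that the choice of named genes favours. Pecam1 fell by 2.36 on the log2 scale in sufficient cells, and the difference was -1.97 ± 0.15 (SE, adjusted p = 1.4e-07). For Pik3ip1 it was -1.30 ± 0.29 (adjusted p = 0.00189). Satb1, a chromatin organizer of thymocytes and naive T cells, had 22550, 25698, 25731 and 20517 in deficient IL-7 cells and 6688, 12914, 7524 and 8629 in deficient Th17 cells (change -1.44 ± 0.16 SE, adjusted p = 2.6e-07). In sufficient cells Satb1 stood at 18031 before and 18447 after polarization (means, n = 4), and the difference was -1.50 ± 0.23 (adjusted p = 1.1e-04). The deficient IL-7 mean of Satb1, 23624, was above the sufficient one. The number of naive genes with a called difference ran from 6 to 10 when libraries were left out.

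T cell identity genes fell too. Of 17 tested members of the antigen receptor and identity list, 15 were lower and 1, Cd2, was higher (0.29 ± 0.09 SE, adjusted p = 0.00814), and the summed level was 161439 to 163932 in IL-7 and 66746 to 74305 after polarization. The call of Cd2 was lost without the D3TAM957 or D3TAM959 set (adjusted p = 0.0711 and 0.053). Cd3d, a signalling chain of the T cell receptor, had 7803, 7443, 7572 and 7616 in IL-7 and 3305, 2886, 3045 and 3028 after polarization (change -1.31 ± 0.07 SE, adjusted p = 2.7e-11), and Cd3e fell by 1.16 on the log2 scale. Cd4, the coreceptor that gives these cells their name, went from 11461 ± 294 to 5955 ± 278 (SD, n = 4). Lck, the kinase bound to that coreceptor, went from 12727 ± 640 to 6173 ± 228, and Thy1 from 17002 ± 1927 to 10266 ± 1924 (SD, n = 4). Cd27, a costimulatory receptor of naive and memory cells, fell from 9963, 9006, 9620 and 8265 to 309, 708, 585 and 463 (change -4.22 ± 0.25 SE).

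The difference from sufficient cells was called below 0 for 11 of these 17 genes, beside 33.9% of the named genes, a share raised by how these were chosen. For Cd3d it was -0.79 ± 0.11 (SE, adjusted p = 2.7e-05) and for Cd4 -0.36 ± 0.15 (adjusted p = 0.0598), which missed the threshold and passed it under quantile normalization (adjusted p = 0.039). Themis, which sets the sensitivity of the T cell receptor, had 3570, 3411, 3475 and 3291 in deficient IL-7 cells and 816, 2614, 1752 and 2130 in deficient Th17 cells, with library D3TAM955 lowest (change -1.03 ± 0.22 SE). In sufficient cells its change was 0.15, and the difference was -1.18 ± 0.32 (adjusted p = 0.00749). The count of 11 was 7 without the D3TAM957 set and 7 without the D3TAM959 set.

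**Figure D3:**
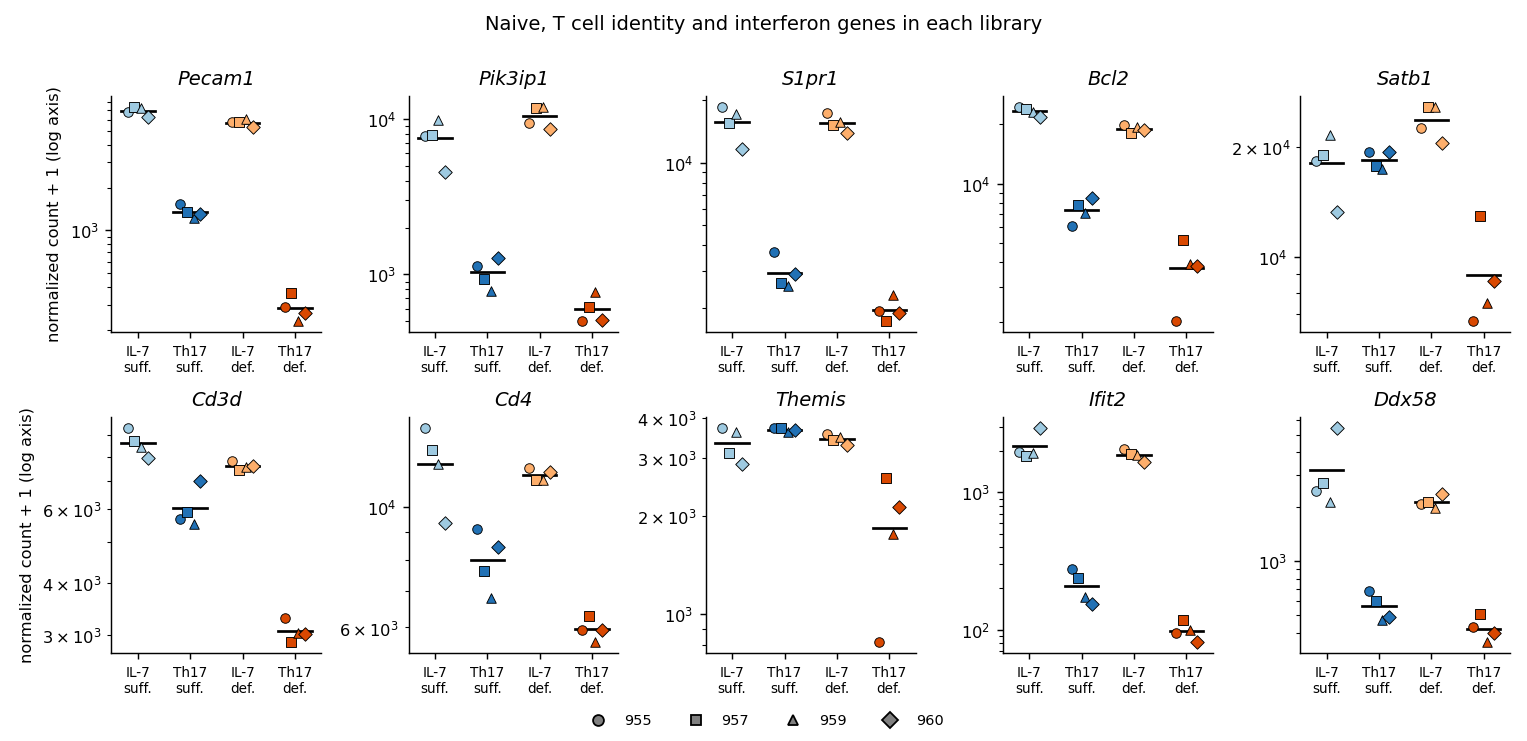
Normalized counts plus 1 (log axis) of 10 naive, identity and interferon genes in all 16 libraries, drawn as in the plot of Th17 genes. All 10 are lower in the deficient Th17 libraries than in the deficient IL-7 libraries, and for Satb1 and Themis the sufficient Th17 libraries stay near the IL-7 level.

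The genes of the alternative helper fates moved in both directions. Of 8 tested Th1 genes 6 were lower and 1 higher. Cxcr3, a chemokine receptor of Th1 cells, fell from 491 ± 96.1 to 55 ± 16.4, Stat4, the signal transducer of IL-12, from 891 ± 40.7 to 154 ± 35.3, and Ifngr1, a chain of the interferon gamma receptor, from 5953 ± 448 to 1444 ± 89.3 (SD, n = 4). Runx3, a factor of the Th1 and CD8 lineages, rose by 1.14 ± 0.09 (SE). Stat4 fell further than in sufficient cells, by -0.79 ± 0.23 (adjusted p = 0.0114), which was not called without the D3TAM960 set (adjusted p = 0.0555). Of 6 tested Th2 genes 3 were higher and 2 lower. Gata3, which directs Th2 cells and maintains T cells in general, had 823, 798, 784 and 926 in IL-7 and 148, 79.2, 109 and 140 after polarization (change -2.83 ± 0.19 SE, adjusted p = 1.7e-10). The difference from sufficient cells was -0.99 ± 0.26 (adjusted p = 0.00692), and it was not called without the D3TAM957 or D3TAM959 set (adjusted p = 0.0758 and 0.0681). The Th2 cytokine gene Il13 rose from 21.8 ± 10.6 to 130 ± 49.1, and Ccr4, a chemokine receptor that Th2 and Th17 cells share, from 214 ± 50.6 to 2130 ± 139 (SD, n = 4). Crem, a regulator of cAMP-responsive genes, went from 315, 304, 310 and 323 to 347, 682, 465 and 618, a change of 0.71 ± 0.18 (SE) against 3.05 in sufficient cells (difference -2.34 ± 0.25, adjusted p = 3.6e-06).

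Interferon-induced genes fell. These genes are switched on by type I interferon through a transcription factor complex that binds paired GAAA repeats, and cells hold a basal level without infection. Of 64 genes in the list 38 are listed, 28 were joined and 16 tested, and 11 were lower and 2 higher, with a median change of -1.17. Sequence is shown for the members whose promoters hold the paired repeat, to let the element be seen beside the change. Promoters were taken from RefSeq on GRCm38.p6, from 250 bases before to 50 bases after the start, and searched on both strands for a pair of GAAA separated by 2 bases of any kind, a match that overlaps no other match in any window shown. Of 32851 promoters of that length 1131 held it (3.44%), and of the 16 promoters of the 12 matched members, 4 did (25%). The capitals mark the match, which reads as its reverse complement, a pair of TTTC, in Ddx58 and Trim30a:
Ddx58 (chr4:40239804-40239833, minus strand, match 2 bases past the start): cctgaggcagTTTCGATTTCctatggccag
Trim30a (chr7:104465210-104465239, minus strand, match 36 bases before the start): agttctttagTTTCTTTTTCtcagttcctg
Trim30a, other start (chr7:104446104-104446133, minus strand, match 2 bases past the start): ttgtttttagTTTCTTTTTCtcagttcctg
Ifitm2 (chr7:140955988-140956017, minus strand, match 46 bases before the start): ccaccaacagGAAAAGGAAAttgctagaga

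Of these, Ddx58, which encodes the RNA sensor RIG-I, had 2055, 2106, 1956 and 2340 in IL-7 and 428, 510, 354 and 397 after polarization (change -2.33 ± 0.21 SE, adjusted p = 1.2e-08). Trim30a, a regulator of inflammatory signalling, fell from 2904, 2395, 2676 and 2222 to 433, 483, 327 and 450 (change -2.60 ± 0.20 SE). Ifitm2, which blocks entry of viruses, moved the other way, from 22.8, 26.4, 35.8 and 58.3 to 96.6, 118, 132 and 219 (change 1.98 ± 0.34 SE). Genes with and without a match both fell: Ifit2, which binds viral RNA and whose promoters hold no match in this window, went from 2058, 1891, 1878 and 1663 to 94, 117, 98.7 and 80.1 (change -4.26 ± 0.18 SE, adjusted p = 6.1e-13), and Parp12 from 403 ± 21.2 to 35.5 ± 12.4 (SD, n = 4). The falls of Ddx58, Trim30a and Parp12 were not called different from those in sufficient cells. Ifit2 fell further (difference -0.88 ± 0.25, adjusted p = 0.0106), except without the D3TAM955 or D3TAM957 set (adjusted p = 0.0949 and 0.0671). So did Dhx58, a relative of RIG-I, with a change of -2.65 ± 0.32 (SE) against -0.82 (difference -1.83 ± 0.45, adjusted p = 0.00436). The list as a whole did not fall further in deficient cells. Of its 16 tested genes 13 were lower and 2 higher in sufficient cells, with a median change of -1.51 beside -1.17 in deficient cells. The median difference was 0.18, beside -0.37 for all named genes. A difference below 0 was called for 3 of the 16, where 33.9% of the named genes had such a call.

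RNA of most glycolysis genes rose. Activated T cells take up more glucose and turn most of it into lactate, and Hif1a is one of the factors that drive the genes concerned. Of 18 tested glycolysis genes 16 were higher and 2 lower, with a median change of 1.82. Gapdh had 6446, 6315, 6284 and 8565 in IL-7 and 27318, 43787, 42336 and 45230 after polarization (change 2.51 ± 0.17 SE, adjusted p = 2.7e-10), and Tpi1 had 971, 971, 930 and 1393 and then 9821, 17314, 15966 and 18545 (3.83 ± 0.21). Pgam1 rose by 3.36 ± 0.15, Pgk1 by 2.94 ± 0.19 and Ldha, which makes lactate, by 2.41 ± 0.13 (SE). These enzymes have many pseudogene copies, so reads may be shared among them. Slc2a1, the glucose transporter GLUT1, had 1029, 1047, 1074 and 1086 in IL-7 and 2543, 4444, 4108 and 4365 after polarization (change 1.83 ± 0.14 SE). The members that fell were Pfkfb4, from 411 ± 37.2 to 84 ± 15.2, and Pdk1, the kinase that keeps pyruvate out of mitochondria, from 10321 ± 476 to 2720 ± 884 (SD, n = 4). For Gapdh, Tpi1 and Slc2a1 Th17 library D3TAM955 was lower than the other Th17 libraries.

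The hypoxia response genes, an overlapping list, rose in 15 of 18 cases and fell in 3. Egln3, a hydroxylase that marks HIF-1α for destruction, went from 62.7, 114, 113 and 115 to 3715, 8086, 6883 and 5945 (change 5.90 ± 0.23 SE, adjusted p = 3.5e-13). Vegfa, an angiogenic factor gene, had 32.3, 20.2, 20.2 and 31.6 and then 279, 1174, 1122 and 879, and Bnip3, a mitophagy receptor gene, 158, 158, 124 and 166 and then 1174, 3733, 3648 and 3693. In both, Th17 library D3TAM955 was the lowest of its group, at less than 1 in 3 of each of the others, and still above all IL-7 libraries. The summed level of the 18 genes was 37881 in Th17 library D3TAM955 and 58518 to 65267 in the other Th17 libraries, and that of the 18 glycolysis genes was 173892 against 262576 to 285724. The part of this library in the results was measured by leaving it out: 16 glycolysis and 15 hypoxia genes were then called higher, as with it.

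The difference between the changes of deficient and sufficient cells was called below 0 for 15 of the 18 hypoxia genes, where 33.9% of the named genes had such a call, a share that the choice of named genes favours. The 3 members that fell in deficient cells, Bnip3l and Pdk1 among them, are included in the 15. The median difference of the list was -0.99 beside -0.37 for all named genes. Ndrg1, a stress-induced gene, had 1234, 1190, 1115 and 1078 in IL-7 and 1304, 3081, 3307 and 2760 after polarization (change 1.09 ± 0.23 SE) and differed by -2.32 ± 0.33 (adjusted p = 5.2e-05). Ddit4, an inhibitor of mTORC1, rose from 1571 ± 114 to 7583 ± 657 (SD, n = 4), while sufficient cells reached 23285, and the difference was -1.76 ± 0.14 (adjusted p = 1.4e-07). Ero1l, an oxidase of the endoplasmic reticulum, differed by -1.75 ± 0.37 (adjusted p = 0.00137) and Slc2a1 by -0.84 ± 0.19 (adjusted p = 0.00251). Bnip3l, another mitophagy receptor, fell in deficient cells (-0.55 ± 0.13 SE) and rose in sufficient cells (0.55), with a difference of -1.09 ± 0.19 (adjusted p = 2.4e-04). For Egln3 the difference was -0.76 ± 0.33 (adjusted p = 0.078) and missed the threshold, which it passed without IL-7 library BASALTAM955 or Th17 library D3TAM957 (adjusted p = 0.0188 and 0.0396). Without Th17 library D3TAM955 the difference was called below 0 for 13 of the 18 hypoxia genes, and without the D3TAM957 or D3TAM959 set for 10. Of the glycolysis genes 7 of 18 had such a call, near the 33.9% of all named genes, Gapdh among them (-0.70 ± 0.24, adjusted p = 0.0287), and 4 without the D3TAM957 set. The call of Gapdh was lost without Th17 library D3TAM955 (adjusted p = 0.057), without IL-7 library BASALTAM960 (adjusted p = 0.0619), under quantile normalization (adjusted p = 0.158) and without the D3TAM955, D3TAM957 or D3TAM959 set.

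**Figure D4:**
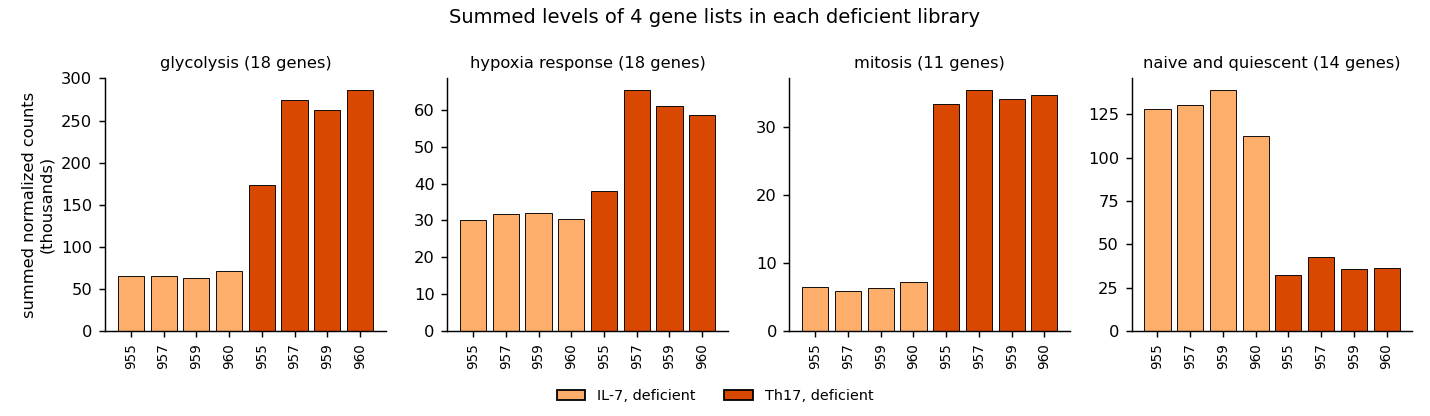
Summed normalized counts (in units of 1000, bars from 0) of the tested genes of 4 lists in the 8 deficient libraries; the numbers are those in the library titles. Glycolysis, hypoxia and mitosis sums are higher and naive sums lower in all 4 Th17 libraries, and Th17 library D3TAM955 is far below the rest of its group for glycolysis and hypoxia, while the 4 Th17 libraries lie between 33290 and 35324 for mitosis.

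Genes of protein synthesis and folding rose, while the ribosomal protein genes moved both ways. All 7 tested aminoacyl-tRNA synthetase genes, all 12 chaperone genes and all 5 proteasome genes were higher. Of 14 tested genes of the ATF4 pathway, which answers amino acid shortage, 9 were higher and 1 lower. Vldlr, a lipoprotein receptor gene of that list, went from 0.951, 0.88, 5.5 and 8.89 to 31.6, 154, 164 and 119 (change 4.67 ± 0.53 SE), below the 639 of sufficient cells (difference -3.48 ± 0.75, adjusted p = 0.00155, and 0.0528 with voom weights). Trib3, a feedback inhibitor of ATF4, fell from 846 ± 74.2 to 211 ± 26 (SD, n = 4), further than in sufficient cells (difference -1.47 ± 0.22, adjusted p = 8.7e-05). Atf4 itself was at 4229 ± 353 and 5073 ± 292 and was not called (0.26 ± 0.13 SE, adjusted p = 0.0696), but it was called higher under each of 3 other scalings (adjusted p = 0.0127 to 0.0379). Of 72 cytosolic ribosomal protein genes 17 were higher and 35 lower, with a median of -0.19, near that of all named genes. Under quantile normalization the same list had 28 higher and 23 lower, so its direction depends on the scaling, and without IL-7 library BASALTAM959 it had 11 higher. These genes too have many pseudogene copies.

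RNA of the cell cycle rose. Of 11 tested mitosis genes 10 were higher, with a median change of 3.60, and of 8 DNA replication genes 7 were higher and 1 lower. Ccna2, encoding cyclin A2, had 316, 358, 424 and 831 in IL-7 and 6485, 7652, 6747 and 7232 after polarization (change 3.97 ± 0.33 SE, adjusted p = 3.7e-09). IL-7 library BASALTAM960 was highest in its group, as it was for Ccnb2 (308 against 109 to 170), Cks2 (183 against 67.5 to 83.6) and the replication helicase gene Mcm3 (1783 against 1170 to 1274). Cdk1, the kinase that starts mitosis, was not readable in sufficient IL-7 cells. In deficient cells it went from 90.3, 126, 146 and 397 to 3204, 3431, 3122 and 3626 (change 4.37 ± 0.34 SE, adjusted p = 1.2e-07 in the fit of 8 libraries, which called 18 of 19 mitosis genes higher). The difference of Ccna2 from sufficient cells was 0.60 ± 0.47 (adjusted p = 0.331), and none was called higher in the mitosis list. Without the D3TAM960 set, 3 mitosis genes differed upwards and 3 downwards. Pole2, a subunit of DNA polymerase epsilon, was the replication gene that fell, from 1162, 1271, 1245 and 1297 to 495, 436, 403 and 379 (change -1.54 ± 0.11 SE), further than in sufficient cells (difference -1.05 ± 0.15, adjusted p = 6.4e-05).

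Inhibitors of the cell cycle did not move as one. Cdkn1b, encoding p27, which holds resting T cells out of the cycle, had 8710, 8068, 8161 and 6912 in IL-7 and 3789, 4491, 4648 and 4579 after polarization (change -0.86 ± 0.12 SE, adjusted p = 4.8e-06). In sufficient cells Cdkn1b rose by 0.37, and the difference was -1.24 ± 0.18 (adjusted p = 5.2e-05). Cdkn1c, encoding p57, fell from 78.4 ± 5.14 to 3.49 ± 1.06 (SD, n = 4; change -4.17 ± 0.31 SE; difference -1.85 ± 0.44, adjusted p = 0.00336). Cdkn2a, which encodes p16 and ARF, went from 0, 5.28, 6.42 and 14.8 to 149, 88.3, 152 and 245 (change 4.85 ± 0.65 SE), and Cdkn2d, encoding p19, rose by 0.82 ± 0.12 (SE). Cdkn1a, encoding p21, a target of p53, was not readable in sufficient IL-7 cells and was chosen after its values were seen. In deficient cells it went from 99.8, 107, 103 and 319 to 8661, 6652, 6897 and 7456.

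Genes of the BCL2 family, which set survival, moved in both directions. Bcl2, which keeps naive T cells alive downstream of IL-7, fell from 19681, 18096, 19269 and 18640 to 2012, 5205, 3901 and 3845 (change -2.42 ± 0.19 SE, adjusted p = 1.4e-09), with Th17 library D3TAM955 lowest. Mcl1, a short-lived survival protein gene, fell from 12290 ± 354 to 4584 ± 545, and Bcl2l2, encoding BCL-W, rose from 82.8 ± 20.6 to 649 ± 68.1 (SD, n = 4). Of 6 tested members of the family 3 were higher and 2 lower.

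The genes of the Sin3 complex and its partners moved in both directions. All 11 tested members were called, 4 higher and 7 lower, where 28.6% and 49.7% of the named genes were. Tet1, a DNA demethylase that binds the complex, had 182, 212, 267 and 256 in IL-7 and 29, 47.5, 37.4 and 23.3 after polarization (change -2.74 ± 0.19 SE, adjusted p = 4.4e-10), further down than in sufficient cells (difference -1.40 ± 0.27, adjusted p = 7.2e-04). Kdm5a, a histone demethylase, fell from 6218 ± 510 to 2161 ± 80.9 (SD, n = 4). Mxd1, a MYC antagonist that recruits Sin3, rose from 580 ± 38.1 to 2562 ± 216. Morf4l1, a chromodomain subunit, fell in deficient cells (-0.30 ± 0.08 SE) and rose in sufficient cells (0.30), with a difference of -0.59 ± 0.11 (adjusted p = 3.7e-04). Of 23 tested chromatin writers and erasers 7 were higher and 12 lower, which is near the shares of all named genes. Tet2, another DNA demethylase, had 1205, 1430, 1579 and 1259 in IL-7 and 1091, 1617, 1551 and 1317 after polarization, with overlapping groups (0.02 ± 0.24 SE, adjusted p = 0.947), while sufficient cells went from 1409 to 4758 (difference -1.63 ± 0.34, adjusted p = 0.00133).

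Of 18 tested cytokine receptor genes 13 were lower and 3 higher. Of 14 chemokine receptor and homing genes 7 were lower and 4 higher, which is near the 49.7% and 28.6% of all named genes. Gpr183, which positions lymphocytes in lymphoid tissue, fell from 2113, 2186, 1949 and 1948 to 123, 288, 149 and 239 (change -3.43 ± 0.18 SE), further than in sufficient cells (difference -1.15 ± 0.26, adjusted p = 0.00213). Itgb7, an integrin chain of gut homing, fell from 8452 ± 641 to 2033 ± 483, and Ccr9, the gut-homing chemokine receptor, from 337, 446, 444 and 464 to 3.51, 5.83, 1.92 and 4.31 (change -6.49 ± 0.26 SE).

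Most of the 10 largest rises of named genes started at or near 0. Gap43, a growth-cone protein gene, had no read in any deficient IL-7 library and 723, 646, 728 and 635 after polarization, at least 244-fold higher when each IL-7 library is set to a floor of 3 counts, and 2900011O08Rik had none and then 236, 337, 413 and 277, at least 113-fold higher. Pdpn, encoding the membrane glycoprotein podoplanin, went from a single read in library BASALTAM960 to 1008, 663, 764 and 770. Alpk2 and Ermn also had 1 read in all IL-7 libraries together and then 882 ± 124 and 430 ± 131, and Gm12534 had 2 reads and then 1191 ± 188 (SD, n = 4). Mt2, a metallothionein that binds zinc, had 1.9, 0.88, 1.83 and 4.94 in IL-7 and 2474, 3705, 3482 and 3506 after polarization (change 10.04 ± 0.27 SE). The sufficient IL-7 level of Mt2 was 50.4 and the sufficient Th17 level 8969 (means, n = 4), and the difference of the changes was 2.60 ± 0.38 (adjusted p = 6.0e-05).

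Among the 10 largest falls Rnf144a, a ubiquitin ligase gene, went from 591, 647, 676 and 580 to 7.03, 6.67, 1.92 and 2.58 (change -6.95 ± 0.28 SE; difference from sufficient cells -2.02 ± 0.40, adjusted p = 7.9e-04). Itgb3, an integrin chain, fell from 4549, 4546, 4786 and 4207 to 56.2, 65.8, 37.4 and 68.9 (change -6.32 ± 0.26 SE; difference -2.61 ± 0.36, adjusted p = 4.5e-05). Samd9l, an interferon-inducible gene, fell from 4532 ± 211 to 49.2 ± 24.7, and Rasgrp2, an activator of the small GTPase RAP1, from 7103 ± 900 to 89.3 ± 8.75 (SD, n = 4). St8sia6, Pdlim4, Tmem229b and Prrt1 changed by -6.78, -6.75, -6.57 and -6.38. All of these genes had every Th17 library below every IL-7 library, which the rule that chose them required.

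Ighm, the gene of the immunoglobulin mu chain, was the tenth and belongs to the B cell markers. It had 13934, 14208, 13507 and 14028 in the deficient IL-7 libraries and 194, 128, 176 and 290 in the Th17 libraries (change -6.19 ± 0.18 SE; difference from sufficient cells -1.66 ± 0.25, adjusted p = 9.1e-05). Of the 17 B cell markers 4 were tested and 3 were lower, and their summed level was 13719 to 14352 in IL-7 and 183 to 475 in Th17 libraries, nearly all of it Ighm in IL-7. Cd79a, a defining chain of the B cell receptor, was at 70.4, 56.3, 74.3 and 80 and then at 19.3, 25, 27.8 and 18.1. Of CD8 and NK cell markers 4 of 17 were tested, with a summed level of 650 to 1431 and then 339 to 728. Cd8b1 fell from 370 ± 45.8 to 93.6 ± 22.7 and Nkg7 from 266 ± 118 to 59.9 ± 31.3, the latter joined on next-best powers of 10. Of 20 myeloid markers 2 were tested: Cd68 fell from 117 ± 14 to 59.4 ± 6.38, and Ly6g had no read in IL-7 and 2.64, 62.5, 11.5 and 28.4 after polarization, also on next-best powers. Of 20 red cell, platelet and stroma markers 2 were tested, Alas2 and Pecam1, both lower, and Pecam1 is a T cell gene of the naive list too. Of the defining markers that could be read, Cd79a, Cd8b1 and Col1a1, none was at 0 in all libraries, and Col1a1, a fibroblast collagen gene, was near 0 at 0 to 3.8 in IL-7 and 10.3 to 18.4 after polarization. Ms4a1, Lyz2 and Ncr1 were not joined to a row and were not analysed here. The part of other cells in the results was not tested.

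The polarization of deficient cells and that of sufficient cells, which share no library, moved most rows the same way. In sufficient cells 11153 rows were called (76.6%), 5297 higher (36.4%) and 5856 lower (40.2%), and among the named genes 2834 were higher (40.9%) and 2427 lower (35.1%). Over 14554 rows the changes had the same sign in 83.3% and a Pearson r of 0.877, as a description of rows that share the annotation, the level and the culture scheme. Of the rows 8932 were called in the same direction in both, 193 were lower in deficient and higher in sufficient cells and 330 the reverse. The difference of the changes was called for 5461 rows (37.5%), 2899 above 0 (19.9%) and 2562 below (17.6%). Without the D3TAM957 set these counts were 3314, 1812 and 1502. Of the 6924 named genes 185 were lower in deficient and higher in sufficient cells and 0 the reverse, a direction that the choice of named genes favours. The difference was called for all 185, which calls in opposite directions within 1 fit all but require. Of the 185, 8 belong to the gene lists, and Cdkn1b, Bnip3l and Morf4l1, described above, are among them. Among the list members 140 of 469 had a called difference below 0 and 2 above, read against the 33.9% and 0.318% of all named genes.

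**Figure D5:**
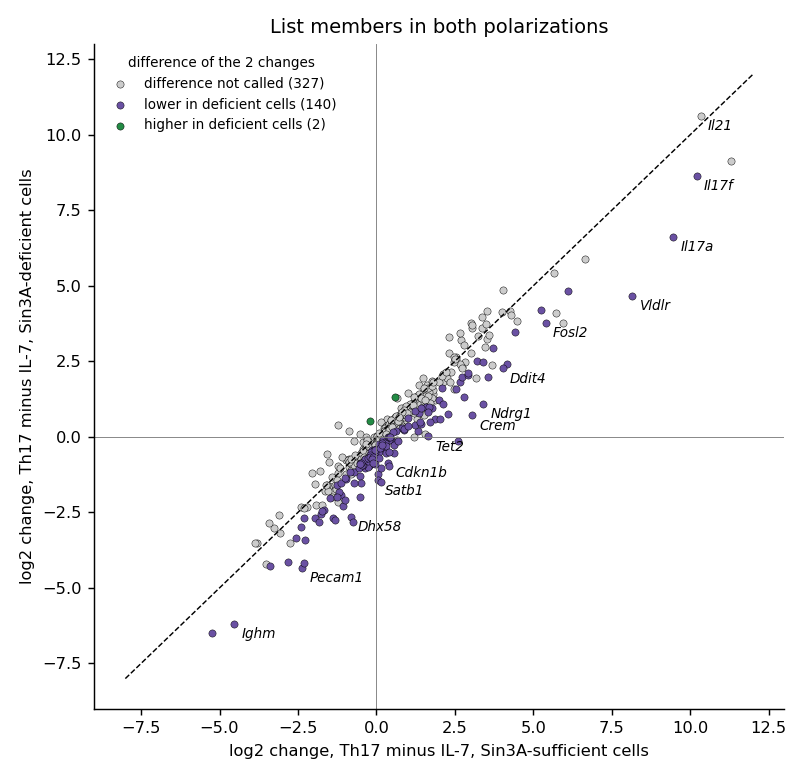
Log2 change of polarization in deficient cells (y axis) against that in sufficient cells (x axis) for the 469 tested list members; each point is a gene, coloured by whether the difference of the 2 changes was called, and the dashed line marks equal changes. Most points lie along the line, 140 coloured points lie below it and 2 above, and the named genes were listed by the authors as lower in deficient Th17 cells.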

How the data were processed

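RNA of poly(A)-selected, stranded libraries from mouse CD4 T cells was sequenced on a NextSeq2000, per the labels' protocols. Per the submitters' processing notes, Trim Galore 0.4.4, STAR 2.6, featureCounts, edgeR and DESeq2 were used, with the build NCBIM37. The authors deposited 1 table with normalized counts of 16 libraries that had lost their decimal points, treated here as a score, beside log2 fold changes and errors of deficient against sufficient Th17 cells for 8552 named genes, the log2 values being deposited as the authors computed them. The mean signal of each named gene over the authors' libraries was deposited too and helped to join names to rows.

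In each library the value of 1 read was found from low values. Every entry was first set to the fewest whole reads that gave its digits. Its power of 10 was then chosen by a model in which the libraries of a group share 1 level, or by the joined fold change. By this step 8.57% of the nonzero values were raised. Likeness of the libraries within a group is thus in part built into the restored values and their spread. Of the nonzero values 99.9932% came out whole, and 15026 of 17850 rows were settled at a posterior of at least 0.95, of which rows with at least 10 reads in at least 4 libraries were tested (14554). Names were attached where a row's values gave the deposited fold change and error, for 8103 of 8552 genes (344 on next-best powers). Of 1000 decoy names 4 were attached. limma 3.58.1 (R 4.3.3) with a mean-variance trend was fitted to log2(normalized count + 1) with 4 group means, two-sided and Benjamini-Hochberg adjusted, and the procedure was tested on simulated data. SD is over the 4 libraries of a group, SE comes from limma, and intervals from restored reads were not used.

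Libraries were grouped by their titles. The named genes and 49 gene lists were chosen with earlier results of these data known. Genes were named if they were panel genes, among the 10 largest rises or falls of first-choice names with groups apart and a mean of at least 100, among up to 4 members of a list with the largest called changes each way, among up to 3 with the largest called differences, or cell type markers. Cd3e, Thy1, Lck, Atf4, Tnf, Klf6, Il1r1, Il17re, Ramp1, Ddx58, Trim30a, Il9, Jun, Lag3 and Cdkn1a were named after their values were seen where this rule did not give them. Alternatives covered pseudocount, filter, scaling, trend, weights, libraries and blocks. Some list members are not reported here. No genome of NCBIM37 was used, and promoter sequences are RefSeq's on GRCm38.p6, matched by symbol.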

Additional observations from a re-analysis of the deposited data

Results flagged for a closer look

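In 22 of 236 groups of 4 libraries, 1 library lay far from the others by Dixon's test at its 95% critical value, which chance gives in about 1 in 20. Among deficient IL-7 libraries, library BASALTAM960 was apart for Stat3 (4790), Il1r1 (162), Tpi1 (1393), Gapdh (8565), Cks2 (183), Mcm3 (1783) and Cdkn2d (1665, the lowest), and library BASALTAM955 for Sin3a (2358), Batf (365), Ccr9 (337) and Egln3 (62.7). Library BASALTAM959 was apart for Nfkbiz (1426). Among deficient Th17 libraries, library D3TAM955 was apart for Ikzf3 (2674), Pgk1 (5325), Gapdh (27318), Bnip3 (1174) and Bnip3l (1460), and library D3TAM960 for Il17a (350) and Prdm1 (81.8). Library D3TAM959 was apart for Cxcr3 (30.7) and Ddit4 (8565) and library D3TAM957 for Pdlim4 (10).

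By limma's test, the log2 change of polarization differed between deficient and sufficient cells for 40 of the 52 genes whose difference is reported. Many of these genes were named because their difference was called, so this share was set in part by that choice. Over all rows 37.5% had a called difference, and among the named genes 33.9% had one below 0 and 0.318% one above. Some of the calls were lost under alternatives, as given with the genes above. Among cytokine, signalling and surface genes the difference was -2.85 for Il17a, -1.58 for Il17f, 0.71 for Lta, -1.47 for Tnfrsf4, -1.16 for Tnfrsf18, -0.95 for Ctla4, -0.72 for Smad3, -1.15 for Gpr183 and -2.61 for Itgb3. Among transcription and chromatin factors it was -1.62 for Fosl2, -1.51 for Hif1a, -1.31 for Nfkbiz, 0.71 for Ikzf3, -1.50 for Satb1, -0.99 for Gata3, -0.79 for Stat4, -2.34 for Crem, -1.40 for Tet1, -1.63 for Tet2 and -0.59 for Morf4l1. Among naive and identity genes it was -1.97 for Pecam1, -1.30 for Pik3ip1, -0.79 for Cd3d and -1.18 for Themis.

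Among interferon, glycolysis, hypoxia and stress genes it was -1.83 for Dhx58, -0.88 for Ifit2, -0.70 for Gapdh, -0.84 for Slc2a1, -2.32 for Ndrg1, -1.76 for Ddit4, -1.75 for Ero1l, -1.09 for Bnip3l, -3.48 for Vldlr and -1.47 for Trib3. Among cell cycle genes it was -1.85 for Cdkn1c, -1.24 for Cdkn1b and -1.05 for Pole2. It was 2.60 for Mt2, -2.02 for Rnf144a and -1.66 for Ighm. Named genes favour differences below 0, since the authors list them as lower in deficient Th17 cells.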

How the results depend on the processing

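The polarization of deficient cells was called for 10004 to 12996 rows under the alternatives other than leaving libraries out, and for 10449 to 11179 rows when libraries were left out, against 11369. The difference between both polarizations was called for 5461 rows and for 3314 to 5200 when libraries were left out, with 1812 to 2771 above 0 and 1502 to 2466 below. The lowest of these came without the D3TAM957 set. The cause was not tested, beyond the fewer samples in that fit. Of the 126 genes tested for their change, 121 kept their side of the threshold under all alternatives run, Cd2 lost its call under some, and Atf4, Il1r1, Klf6 and Tnfrsf18 gained one. Of 52 differences 39 kept theirs, and none of either kind reversed. Other scalings shifted the median change by at most 0.061.

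The labels state no pairing of the recurring numbers, so the numbers were not taken as pairs. Same-numbered deficient libraries deviated together weakly (correlations 0.03, 0.0733, 0.149 and 0.15), which does not settle whether they are pairs. With the replicate block 11553 rows were called for polarization and 5946 for the difference, 3151 above 0 and 2795 below. With the block the difference was called lower for 11 glycolysis genes in place of 7, 38 ribosomal protein genes in place of 21, and for Cd4 and Egln3, and Il1r1 was called higher. Each Th17 library correlated best with the IL-7 library of its own number, a hint from the data and not the design.

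The fit of the 8 deficient libraries with rows settled there was added after the data were seen and called 11832 rows. edgeR and DESeq2 were not run, because restored reads were not accepted as counts. Genes with few reads in IL-7 cells, such as Il17a, have changes that depend on the pseudocount. Genes outside the authors' list, and 449 listed genes without a row, were not analysed here by name.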

Other observations

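Further gene groups were counted in deficient cells. Of 16 tested respiratory chain genes 11 were higher and 3 lower, and of 18 mitochondrial ribosomal protein genes 12 were higher and 1 lower, where 28.6% and 49.7% of named genes were. Of 14 translation factor genes 9 were higher and 3 lower. Of 13 genes of cholesterol synthesis 6 were higher and 4 lower, of 9 of fatty acid synthesis 6 and 1, and of 5 of the TCA cycle 1 and 0. Of 8 genes of autophagy and lysosomes 5 were lower and 2 higher, with a median change of -0.69. Of 12 NF-kB feedback genes 4 were higher and 3 lower.

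Some genes could be restored in deficient cells but not in sufficient IL-7 cells. They were tested in the fit of the 8 deficient libraries and were chosen after their values were seen. Batf3, an AP-1 factor, went from 0.951, 7.04, 0 and 15.8 in IL-7 to 480, 634, 767 and 1043 after polarization. Nr4a2, a relative of Nr4a1, went from 5.7, 3.52, 5.5 and 12.8 to 419, 383, 575 and 413. Slc16a3, a lactate exporter, went from 62.7, 63.4, 77 and 114 to 929, 3658, 3762 and 3364, with Th17 library D3TAM955 lowest, as it was for the sum of the glycolysis genes. Aurkb, a mitotic kinase, went from 78, 111, 122 and 265 to 2893, 4116, 3683 and 3602. All 4 were called higher (adjusted p between 3.7e-09 and 8.6e-07 in limma).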
